A study of Rattus norvegicus with 6 samples.

Results

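The 55 genes described here encode proteins of the cytosolic ribosome. They were chosen by symbol (Rpl or Rps with a number and at most 1 letter a, x or y, then Rplp0 to Rplp2 and Rpsa, with the Rps6k kinases left out) by a rule that uses no difference between the groups. They are 55 of 18166 genes, each read from its brightest probe set that names a single symbol, with 37 genes of the large subunit and 18 of the small subunit. The data are 6 Affymetrix Rat Gene 2.0 ST arrays, 3 of Hlirag and 3 of diabetic rats. Hlirag rats were male Sprague-Dawley rats fed a high-fat diet for 4 weeks, given streptozotocin at 30 mg/kg and then treated with liraglutide, a GLP-1 receptor agonist, at 0.4 mg/kg/day for 12 weeks. Diabetic rats had the same strain, sex, diet and streptozotocin, and received saline. Both groups therefore carried chemically induced diabetes, and the labels give an age of 17 weeks for all arrays. No source used here says that each array held a separate rat, so p-values measure the spread between these arrays, which may be technical.

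The tissue is labelled cardiac muscle, while the sample titles begin with "arota" and the descriptions speak of adipose tissue. Markers were read against a background log2 level of 6.02, the 95th percentile of 67 olfactory receptor genes. All 8 white adipocyte markers lay above it on every array. Of 10 ventricular cardiomyocyte markers, 6, 3 and 2 lay above it on the Hlirag arrays and 9, 4 and 3 on the diabetic arrays. Of 9 skeletal muscle markers, 3, 1 and 2 lay above it on the Hlirag arrays and 9, 9 and 2 on the diabetic arrays. In bulk tissue, fewer cells of a type and less RNA per cell cannot be told apart.

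Ribosomal proteins are built into the subunits in fixed proportions, and cells make them in step. In mammals their mRNAs begin with a run of pyrimidines at the 5′ end, called the TOP motif (terminal oligopyrimidine), which places their translation under the kinase complex mTORC1. Such control acts on translation, and arrays measure the amount of mRNA. Ribosomal protein mRNAs are among the most abundant of most tissues.

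The start-site sequence was a feature that the choice of genes did not use. Start windows of 30 bases, 15 before and 15 from the annotated start (RefSeq, GRCr8), are printed for the 5 genes with the most negative and the 5 with the most positive differences, and for Rpl19, Rps15, Rpl10 and Rpl34 as examples of runs of 12 to 20 pyrimidines. Capitals mark a run of 8 or more C or T that lies near the start, and a window with no capitals holds none.
Rpl35 (chr3:43165907-43165936, minus strand): cgCCCCTTCCTCTTTCTCTCgaaccgggcg
Rplp0 (chr12:46718376-46718405, minus strand): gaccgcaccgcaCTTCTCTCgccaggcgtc
Rps27 (chr2:177964592-177964621, minus strand): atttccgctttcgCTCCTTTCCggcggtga
Rpl19 (chr10:83519049-83519078, plus strand): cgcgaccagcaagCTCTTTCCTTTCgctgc
Rps15 (chr7:10068101-10068130, minus strand): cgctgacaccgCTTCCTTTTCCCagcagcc
Rpl10 (chrX:157205835-157205864, plus strand): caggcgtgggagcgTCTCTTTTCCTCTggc
Rps24 (chr16:96502-96531, plus strand): tgagcggTCCTCTTTTCCTCCTTTacagct
Rpl5 (chr14:1995211-1995240, minus strand): aCTCTCTTTCCCacgtcgcttgcgtcctgg
Rps3a (chr2:173827028-173827057, minus strand): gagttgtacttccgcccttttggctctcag
Rpl6 (chr12:41011676-41011705, minus strand): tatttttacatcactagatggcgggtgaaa
Rps12 (chr1:23500060-23500089, plus strand): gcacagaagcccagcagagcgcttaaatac
Rps16 (chr1:92770643-92770672, plus strand): cctggaaaatcggtcggggtggccccaagc
Rps6 (chr5:106420526-106420555, minus strand): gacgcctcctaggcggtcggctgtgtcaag
Rpl34 (chr2:221962269-221962298, minus strand): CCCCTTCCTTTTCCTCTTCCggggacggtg

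Promoter sequences were found for 45 of the 55 genes. A run of 8 or more C or T within 20 bases of the start was held by 32 of the 45 (71.1%), against 15.1% of 19005 protein-coding promoters and 18.3% of 60 promoters of mitochondrial ribosomal proteins. The longest such run had a median of 10 bases in the ribosomal protein genes and 5 in all promoters. CTTTCC on the sense strand within 20 bases of the start, which can lie inside such a run, was held by 28.9% of them and 1.97% of all. Over 300 bases and both strands, CGGAAG, a core sequence bound by ETS factors, was held by 51.1% against 20.6% of all, and by 53.3% of the mitochondrial set. TCTCGCGA was held by 22.2% against 1.27% of all, and AAGATGGC, bound by the factor YY1, by 11.1% against 3.92% of all and 25.0% of the mitochondrial set. TATAAA between 45 and 10 bases before the start was held by 6.67% and 2.26%. A match describes the letters and says nothing of binding.

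No ribosomal protein gene differed between Hlirag and diabetic arrays at the study's criterion (fold change over 1.5 in either direction and unadjusted p under 0.05) when limma was run on all genes. The count was 0 of 55, where 3.78% of all genes (687) met it, 1.62% higher in Hlirag and 2.16% lower. None of the 55 had an unadjusted p under 0.05 by limma, where 4.14% of all genes (752) did, or by the methods' one-way ANOVA, where 3.8% did and 1.3% met the criterion. At an adjusted p under 0.05, limma called 0 of all 18166 genes. The lowest p among the 55 was 0.113 for Rps16 (limma, adjusted p = 0.780). With 3 arrays per group the smallest two-sided p that an exact permutation test of a single gene can reach is 0.1. Leaving out single arrays gave 1 gene of the 55 at the criterion once, Rpl30 (lower in Hlirag without Hlirag replicate 1, where 11.1% of all genes met it). It gave 0 without Hlirag replicate 2 (1.24% of all genes), Hlirag replicate 3 (1.93%), diabetic replicate 1 (1.89%), diabetic replicate 2 (2.04%) or diabetic replicate 3 (5.85%), and 0 without Hlirag replicate 3 and diabetic replicate 2 together (2.7%). Without diabetic replicates 1 and 2, Rpl27a was lower at the criterion (1.57% of all genes).

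The differences were small and mostly negative. The log2 fold change, Hlirag minus diabetic, was below 0 for 43 of 55 genes, with a median of -0.20, where the median of all genes was 0.0021, and the median stayed negative after quantile normalization (-0.098) and median centring (-0.14). The large subunit had a median of -0.25 with 31 of 37 below 0, and the small subunit a median of -0.10 with 12 of 18 below 0. After quantile normalization the medians were -0.13 for the large and 0.012 for the small subunit. After median centring they were -0.19 and -0.042. Bright genes as a whole lay on the same side. Among genes with a mean from 8 to 10 the median was -0.27 for 22 ribosomal protein genes and -0.20 for all genes, and above 10 it was -0.19 for 17 and -0.02 for all. Without Hlirag replicate 3 the median of the 55 was 0.041, with 21 below 0 and 34 above.

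The precision of 3 arrays per group was limited. The standard error of a ribosomal protein gene ranged from 0.21 to 0.82 on the log2 scale, with a median of 0.36. The 95% interval of every one of the 55 held 0, and it lay inside a 1.5-fold change in both directions for only 3 of them. For the other 52 it reached past that size in at least 1 direction.

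**Figure D1:**
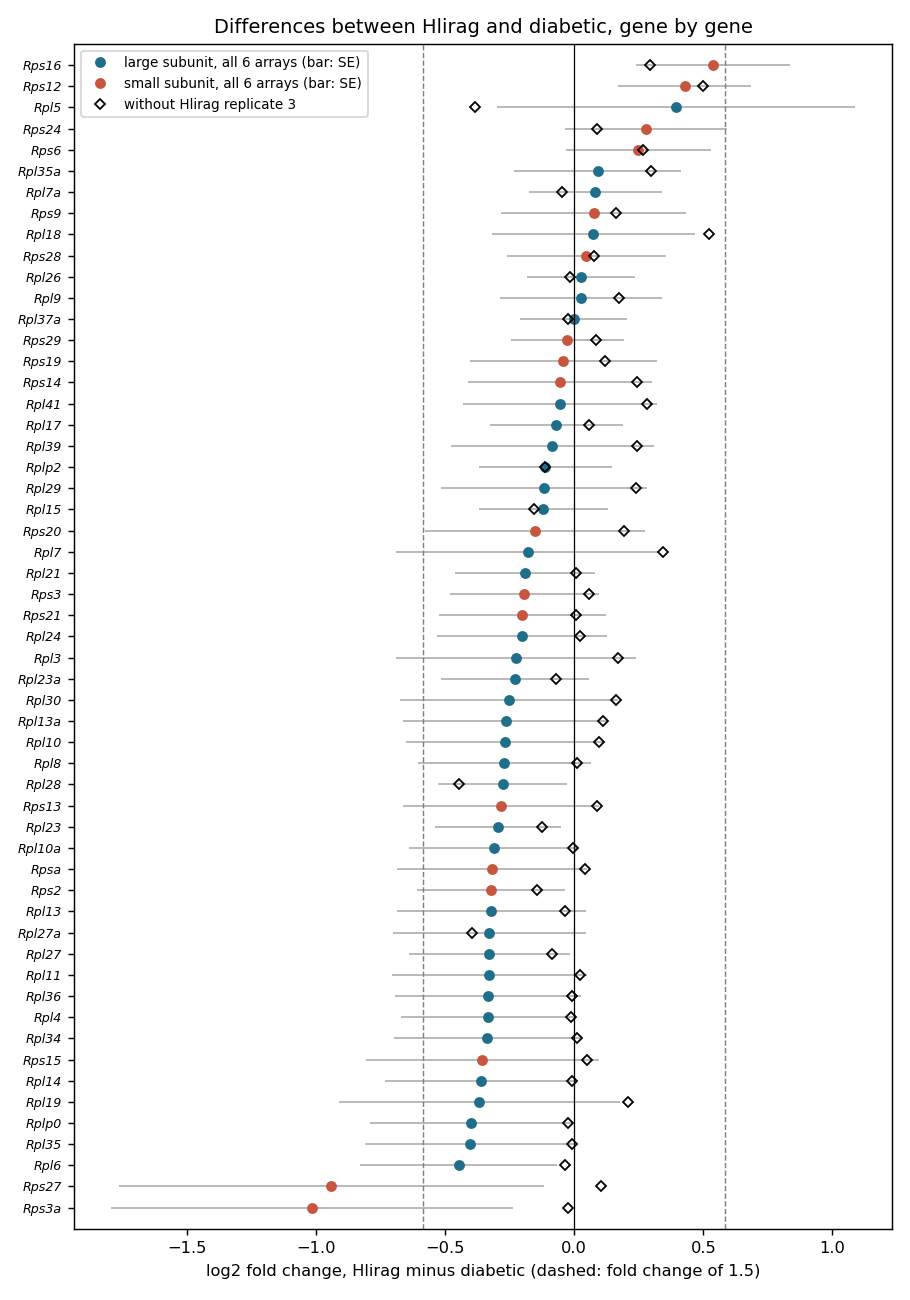
Log2 fold change (x axis, Hlirag minus diabetic) of each of the 55 ribosomal protein genes (y axis) from all 6 arrays, with its standard error as a bar, and the same without Hlirag replicate 3 as open diamonds. With all arrays 43 of 55 points lie below 0; without Hlirag replicate 3, 21 do.

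Within both groups the values went with the array. Hlirag replicate 3 held the lowest value of 38 of the 55 genes, and of 37 of the 44 with a mean above background, where 66.6% of 2133 other genes with a mean of 8 or more were lowest there. The median log2 level of the 55 was 9.88, 9.55 and 8.73 on the 3 Hlirag arrays and 9.66, 9.22 and 9.84 on the 3 diabetic arrays. Hlirag replicate 1 and diabetic replicate 3 were the highest arrays, and together they held the highest value of 39 of the 55 genes. Among the 44 above background the share was 75.0%, against 35.8% of the other bright genes. It was 59.3% of 54 genes above background that are named as ribosomal protein-like or pseudogenes. Diabetic replicate 2 was the lowest diabetic array for 43 of the 55 genes, and it was the highest array for none. It was the lowest diabetic array for 86.4% of the 44, 79.6% of the 54 ribosomal protein-like genes and 41.8% of the other bright genes. Hlirag replicate 1 and diabetic replicates 2 and 3 were singled out by the levels of the 55 genes themselves. That choice alone raises their shares above those of other genes, and genes that vary together are not separate observations.

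**Figure D2:**
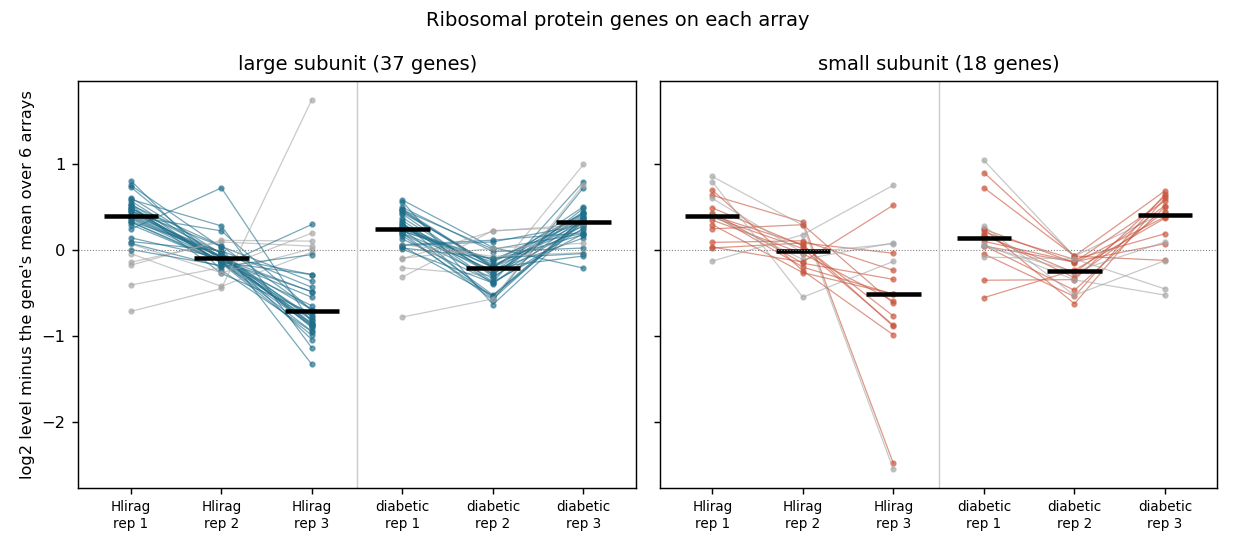
Log2 level of each ribosomal protein gene minus its own mean over the 6 arrays (y axis), by array (x axis, Hlirag left and diabetic right), for 37 large and 18 small subunit genes. Thin lines join 1 gene's values within a group, whose replicates have no order, grey marks genes not above background and black bars are medians; Hlirag replicate 3 and diabetic replicate 2 hold the lowest median of their group in both panels.

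The median range within a group was larger than the median difference between groups. For the 44 genes above background the range over the Hlirag arrays had a median of 1.19 and the range over the diabetic arrays a median of 0.71, while the absolute log2 fold change had a median of 0.26. The range within Hlirag was larger than the difference in all 44. A range is set here against a difference of means, so this count says little about these genes in particular. The standard deviation over the 6 arrays had a median of 0.49 in the 44 and 0.42 in the 2133 other bright genes. Hlirag replicate 3 was the lowest Hlirag array for 93.2% of the 44 and 80.3% of the other bright genes. Taken as deviations from each gene's mean, the 44 genes had medians of 0.41, -0.08 and -0.75 on the Hlirag arrays and 0.24, -0.23 and 0.36 on the diabetic arrays. Other bright genes had 0.15, 0.11 and -0.55 on the Hlirag arrays and 0.17, 0.02 and 0.00 on the diabetic arrays. Some nearby gene sets shared the array order of the 44. The 16 other TOP mRNAs had 0.21, -0.09 and -0.64 on the Hlirag arrays and 0.14, -0.07 and 0.32 on the diabetic arrays. The 10 translation elongation genes, some also TOP mRNAs, had 0.21, -0.10 and -0.84, then 0.13, 0.07 and 0.25. Initiation, assembly and RNA polymerase I genes were highest in diabetic on replicate 1, and mTORC1 genes on replicate 2.

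Part of the low values on Hlirag replicate 3 was shared with the array as a whole. The standard deviation over all genes was 1.52 on that array and 1.84 to 1.98 on the other 5, so that its bright genes lay lower and its dim genes higher. Quantile normalization, which gives every array the same distribution, brought the other bright genes to between -0.13 and 0.04 on every array. The 44 ribosomal protein genes then had 0.30, -0.16 and -0.30 on the Hlirag arrays and 0.13, -0.40 and 0.37 on the diabetic arrays. The spread of these genes thus narrowed over the Hlirag arrays, where it had run from 0.41 to -0.75, and did not narrow over the diabetic arrays. Diabetic replicate 2 was now the lowest array. After that step the 16 other TOP mRNAs had 0.10, -0.13 and -0.25 on the Hlirag arrays and 0.07, -0.10 and 0.33 on the diabetic arrays.

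Some other values moved with the same arrays. The summed log2 level of 7 fibroblast markers was 74.2, 70.1 and 58.7 on the Hlirag arrays and 71.3, 65.0 and 70.4 on the diabetic arrays, and all 7 were above background except 1 on Hlirag replicate 3. That of 7 smooth muscle markers was 73.5, 68.9 and 59.4 on the Hlirag arrays and 70.6, 63.2 and 72.9 on the diabetic arrays, with all 7 above background throughout. Both lists were lowest in their group on Hlirag replicate 3 and diabetic replicate 2. So were 5 endothelial markers, narrowly on the diabetic arrays (42.38, 40.99 and 41.01). The other marker lists did not have this order. The 8 macrophage markers were lowest in diabetic on replicate 3 (58.3), and 4 Schwann cell markers were highest on diabetic replicate 2 (33.6). Brown adipocyte markers were lowest in Hlirag on replicate 1 (57.9). These sums are of deposited values, in which bright genes as a whole were low on Hlirag replicate 3. The summed level of 8 white adipocyte markers ranged from 85.8 to 88.5 on the Hlirag arrays and from 84.2 to 87.2 on the diabetic arrays. The part of cell makeup in the ribosomal protein levels was not tested.

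**Figure D3:**
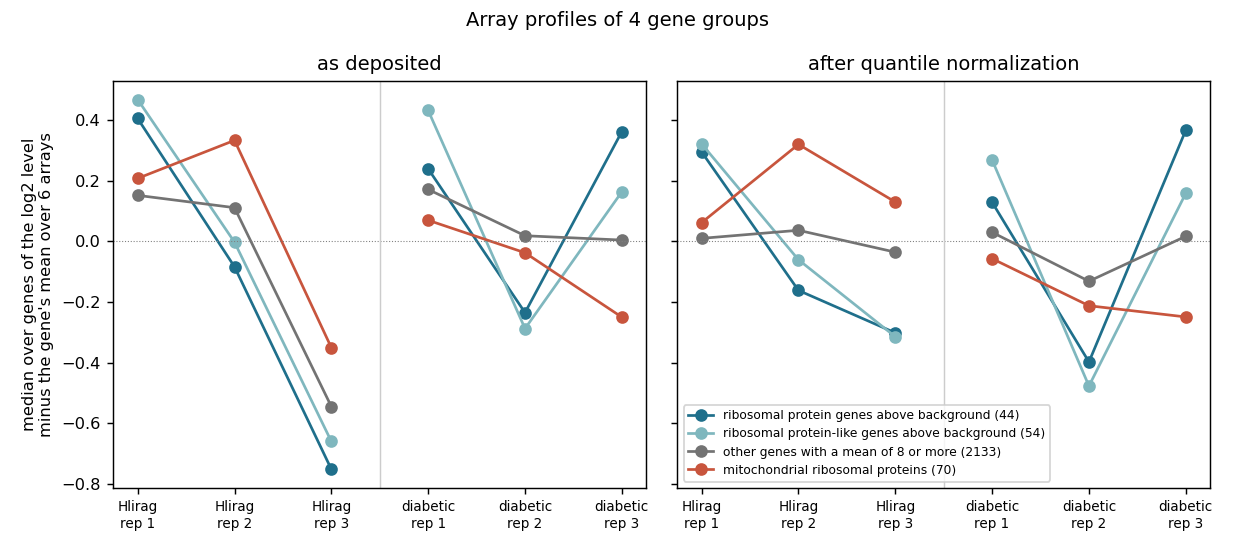
Median deviation of 4 gene groups from each gene's mean over 6 arrays (y axis, log2), by array (x axis, Hlirag left and diabetic right), as deposited and after quantile normalization; lines join a group's medians and replicates have no order. After quantile normalization the ribosomal protein genes still run from -0.30 to 0.30 over the Hlirag arrays and from -0.40 to 0.37 over the diabetic arrays.

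In the large subunit, the stalk recruits the elongation factors and rests on Rplp0. Rplp0 had log2 levels of 8.25, 7.61 and 6.81 on the Hlirag arrays and 8.05, 7.55 and 8.26 on the diabetic arrays, with means of 7.56 ± 0.72 in Hlirag and 7.95 ± 0.36 in diabetic (SD over 3 arrays each). Hlirag replicate 3 was the only array below the diabetic range, and the log2 fold change was -0.40 ± 0.39 (SE), or -0.023 without that array. Rplp2, a partner in the stalk, differed by -0.11.

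Rpl3, Rpl8 and Rpl10 lie near the peptidyl transferase centre, where peptide bonds form, and they had differences of -0.23, -0.27 and -0.27, in that order, all of which were above 0 without Hlirag replicate 3. Rpl10, which joins late in large subunit assembly, had 10.24, 9.72 and 8.90 on the Hlirag arrays and 10.34, 9.78 and 9.54 on the diabetic arrays. Of 7 genes around the tunnel through which the new peptide leaves (Rpl4, Rpl17, Rpl19, Rpl23a, Rpl26, Rpl35 and Rpl39), 6 were below 0, with a median of -0.23, while without Hlirag replicate 3 the median was -0.0087 with 4 below 0. Rpl35, at the tunnel opening, had 10.06, 9.36 and 8.52 on the Hlirag arrays and 9.99, 9.33 and 9.84 on the diabetic arrays. The groups overlapped for all 7, and Rpl35 differed by -0.40 ± 0.40 (SE), or by -0.0087 without Hlirag replicate 3.

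Rpl6 had the most negative difference of the large subunit. Its levels were 10.21, 9.77 and 8.76 on the Hlirag arrays and 10.27, 9.81 and 9.996 on the diabetic arrays, a log2 fold change of -0.45 ± 0.38 (SE), which was -0.035 without Hlirag replicate 3. Rpl23 had 12.51, 12.27 and 11.88 on the Hlirag arrays and 12.41, 12.46 and 12.66 on the diabetic arrays, with a difference of -0.29 ± 0.24 (SE), or -0.12 without Hlirag replicate 3. Its p of 0.262 by limma was among the 4 lowest of the 55 (adjusted p = 0.780).

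Rpl5 and Rpl11 bind the 5S RNA and, as a free complex, hold the p53 regulator Mdm2. Rpl11 had 8.96, 8.41 and 7.64 on the Hlirag arrays and 8.88, 8.22 and 8.90 on the diabetic arrays, like most of the large subunit. Rpl5 ran the other way, with 3.998, 4.27 and 6.47 on the Hlirag arrays and 3.93, 4.14 and 5.47 on the diabetic arrays. Its mean was below background, only Hlirag replicate 3 lay above it, and the log2 fold change of 0.39 ± 0.69 (SE) became -0.39 without that array.

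In the small subunit the lowest values came from the same array. Rps3a had 6.86, 6.55 and 3.73 on the Hlirag arrays and 7.13, 6.15 and 6.91 on the diabetic arrays, and Rps27, a zinc finger protein, had 6.41, 5.84 and 2.999 on the Hlirag arrays and 6.60, 5.48 and 5.99 on the diabetic arrays. Both were at or above 5.48 on 5 arrays and far below on Hlirag replicate 3. The mean of Rps27 was not above background, and on Hlirag replicate 3 both genes lay well below it. Their log2 fold changes of -1.02 ± 0.78 for Rps3a and -0.94 ± 0.82 for Rps27 (SE) thus rest on values under background, and with such values raised to the background level they were -0.25 and -0.063. Without that array they were -0.025 and 0.10.

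On the side where mRNA enters and codons are read, Rps2 differed by -0.32, Rps3 by -0.19 and Rps9 by 0.075, the last below background. On the exit side Rpsa differed by -0.32, Rps14 by -0.054 and Rps28 by 0.046. Rpsa, which also serves as a laminin receptor, had 11.43, 11.06 and 10.17 on the Hlirag arrays and 11.09, 10.90 and 11.61 on the diabetic arrays. Without Hlirag replicate 3 the 3 genes of the entry side had a median of 0.057 and all 3 of the exit side were above 0. Rps14 changed sign to 0.0071 under median centring and to 0.13 under quantile normalization.

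The most positive differences were mostly found in dim probe sets. Rps16 had 4.44, 4.75 and 5.33 on the Hlirag arrays and 4.64, 4.22 and 4.05 on the diabetic arrays, a log2 fold change of 0.54 ± 0.30 (SE). Rps12 had 5.58, 4.95 and 5.05 on the Hlirag arrays and 4.90, 4.87 and 4.53 on the diabetic arrays, 0.43 ± 0.26 (SE). Rps12 was the only gene of the 55 whose groups did not overlap, where 11.1% of all genes had no overlap. Both lay below background on every array, as did Rps6, the target of the S6 kinases, at 0.25 ± 0.28 (SE). Rps24, with 6.11, 5.93 and 6.60 on the Hlirag arrays and 5.52, 5.84 and 6.45 on the diabetic arrays, had a mean just above background and differed by 0.28 ± 0.31 (SE).

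The steadiest genes were of 2 kinds. Rpl37a and Rpl26 had the smallest standard deviations over the 6 arrays (0.097 and 0.11), and both lay below background. Rps29 was next with 0.15 and was bright on every array, with 13.01, 13.03 and 12.68 on the Hlirag arrays and 13.02, 12.78 and 12.99 on the diabetic arrays. This reading is the brightest of its 3 probe sets, whose log2 fold changes ran from -0.35 to -0.027. With the mean of its probe sets Rps29 differed by -0.22 ± 0.31 (SE). In all, 11 of the 55 genes had a mean at or below background, 5 of them below 0 in log2 fold change, with a median of 0.027. The 44 above background had a median of -0.24, with 38 below 0, where all 8074 genes above background had a median of -0.21.

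Of the genes mutated in human Diamond-Blackfan anaemia, 9 were measured, with 5 below 0 and a median of -0.027, which was 0.011 after quantile normalization and 0.034 after median centring. Split by the start-site run, the 32 genes with a run of 8 or more pyrimidines had a median of -0.27 with 23 lowest on Hlirag replicate 3, and the 13 without had -0.056 with 8 lowest there. Above background were 28 of the 32 and 9 of the 13, and the difference between them was not tested.

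Several probe sets gave more readings of the same family. The 55 genes had 85 single-symbol probe sets, of which none met the criterion and 59 were lowest on Hlirag replicate 3. Of 18 genes with more than 1 probe set, 4 (Rpl23a, Rpl41, Rps19 and Rps28) had probe sets of opposite sign. A further 30 probe sets list a ribosomal protein symbol together with other symbols and cover 13 genes not among the 55, such as Rpl12, Rps18 and Rps7. They had a median of -0.20, and 25 of the 30 were below 0, with 24 lowest on Hlirag replicate 3 and 0 at the criterion. Ribosomal protein genes have many near-identical processed copies, and 139 genes named as ribosomal protein-like or pseudogenes were measured. The 54 of these above background had a median of -0.16, and the share of signal that such copies take from the parent probe sets cannot be read from these values.

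Rack1 and Fau encode proteins of the ribosome under other symbols. Rack1, a scaffold of the small subunit, had 10.26, 9.71 and 8.64 on the Hlirag arrays and 10.17, 9.54 and 10.30 on the diabetic arrays, a log2 fold change of -0.47 ± 0.43 (SE), which was -0.020 without Hlirag replicate 3. Fau, which encodes a ubiquitin-like fusion with a small subunit protein, had 7.56, 7.80 and 7.90 on the Hlirag arrays and 7.53, 7.16 and 8.004 on the diabetic arrays, 0.19 ± 0.27 (SE). Rack1 had the array order of the core genes, and Fau was not low on Hlirag replicate 3.

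The paralog Rpl3l stood apart from its relative Rpl3. Rpl3l, which in human and mouse replaces Rpl3 in the ribosomes of striated muscle, had 4.10, 4.67 and 4.84 on the Hlirag arrays and 6.71, 8.94 and 4.49 on the diabetic arrays. It was above background only on diabetic replicates 1 and 2. Its log2 fold change of -2.18 ± 0.97 (SE) missed the criterion (limma, adjusted p = 0.780). Rpl3 had 10.32, 9.66 and 8.80 on the Hlirag arrays and 9.90, 9.12 and 10.43 on the diabetic arrays. The other measured paralogs were Rpl7l1 at -0.21, Rpl22l1 at 0.0090 and Rps4y2 at 0.070, of which only Rpl7l1 was above background.

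Of 10 translation elongation genes, 1 fell at the criterion, where 2.16% of all genes did. All 10 were below 0 (8 after quantile normalization) with a median of -0.43, while without Hlirag replicate 3 the median was -0.10 with 6 below 0. The gene that fell was Eef1a2, the form of elongation factor 1 alpha of muscle and neurons. It had 6.10, 5.31 and 5.26 on the Hlirag arrays and 8.22, 9.77 and 6.32 on the diabetic arrays, so that the groups did not overlap, and fell by 2.54 on the log2 scale (limma, adjusted p = 0.780). Its Hlirag mean lay below background, and with values below background raised the difference was -2.06 and missed the criterion, as it did by the methods' one-way ANOVA. Its common form Eef1a1, itself a TOP mRNA, differed by -0.095.

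The same 2 diabetic arrays carried skeletal muscle and nerve markers. The summed log2 level of the 9 markers was 46.7, 44.3 and 46.0 on the Hlirag arrays and 91.2, 102.2 and 46.5 on the diabetic arrays. All 9 fell at the criterion, where 2.16% of all genes did, with a median log2 fold change of -4.11 (limma, lowest adjusted p = 0.780). The groups overlapped for all 9, and the summed level of diabetic replicate 3 lay within the Hlirag range. The summed level of 8 sympathetic neuron and nerve markers was 40.8, 41.7 and 43.5 on the Hlirag arrays and 62.2, 83.2 and 43.6 on the diabetic arrays. All 8 were below 0 and 5 lower at the criterion, against 2.16% of all genes (limma, lowest adjusted p = 0.780). Of these 8, 1, 0 and 1 were above background on the Hlirag arrays and 7, 8 and 2 on the diabetic arrays. Without diabetic replicates 1 and 2, which left 1 diabetic array assumed to vary like the Hlirag arrays, Rpl3l differed by 0.046 and Eef1a2 by -0.76, which missed the criterion. The ribosomal protein genes did not share this order of arrays, since diabetic replicate 1 was among their higher arrays and diabetic replicate 2 among their lower.

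**Figure D4:**
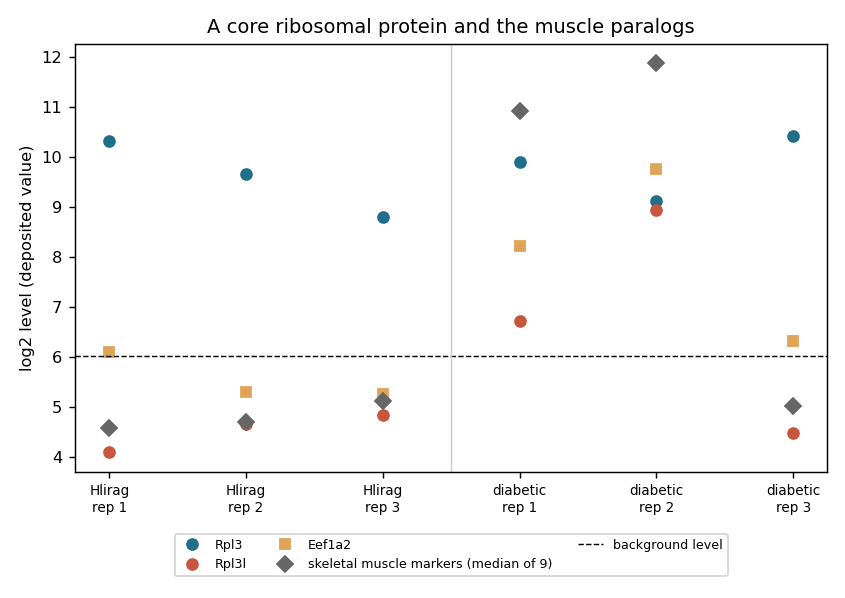
Deposited log2 level (y axis) of Rpl3, its paralog Rpl3l, Eef1a2 and the median of 9 skeletal muscle markers on each array (x axis, Hlirag left and diabetic right), with the background level of 6.02 as a dashed line. Each gene is to be read across arrays only; Rpl3l reaches 6.71 and 8.94 on diabetic replicates 1 and 2, where the muscle markers are high.

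In the rest of the translation machinery single genes seldom passed. Of 22 initiation genes, 21 were below 0, with a median of -0.22 and none at the criterion, while after quantile normalization 11 were below 0 and without Hlirag replicate 3 the median was 0.055 with 8 below 0. The lowest p was that of Eif1ax, a scanning factor, with a log2 fold change of -0.69 ± 0.42 (SE), followed by Eif4b, a helper of the eIF4A helicase, at -0.37 ± 0.27 (SE). Of 16 other TOP mRNAs, 15 were below 0 (13 after quantile normalization), with a median of -0.37 and none at the criterion, and without Hlirag replicate 3 the median was -0.098 with 11 below 0. Eef1d (-0.56) and Eef1b2 (-0.70) had the lowest p, and Eef1b2 met the criterion without Hlirag replicate 1 (-1.08).

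Genes that make ribosomes were also mostly below 0 with all arrays. Of 37 assembly factors, 32 were below 0 (27 after quantile normalization), with a median of -0.28 and none at the criterion, and without Hlirag replicate 3 the median was -0.064 with 23 below 0. Nop58 and Nop56, core proteins of the box C/D particles that guide rRNA methylation, had the lowest p. Nop58 had 7.95, 7.60 and 6.62 on the Hlirag arrays and 8.63, 8.02 and 8.12 on the diabetic arrays, with no overlap and a log2 fold change of -0.87 ± 0.37 (SE), short of the criterion (limma, adjusted p = 0.780). It met the criterion with array weights (-0.90), quantile normalization (-0.63) and the replicate block, and without Hlirag replicate 1 (-1.15). The array weights put most of the diabetic mean on replicate 1. Nop56 differed by -0.71 and met it with the replicate block and without Hlirag replicate 1 (-1.004). Of 18 genes of RNA polymerase I and rRNA transcription, 14 were below 0 (10 after quantile normalization), with a median of -0.18 and none at the criterion, and without Hlirag replicate 3 the median was -0.025 with 10 below 0. Polr2e differed by 0.48 and met the criterion after quantile normalization (0.73) and without Hlirag replicate 3 (0.68). Ubtf differed by -0.44 and met it without Hlirag replicate 1 (-0.67).

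Of 18 genes of mTORC1 and the S6 kinases, 1 fell at the criterion, where 2.16% of all genes did. The median over the 18 was -0.15 with 15 below 0, and 0.016 with 8 below 0 after quantile normalization. Without Hlirag replicate 3 it was -0.14 with 13 below 0. The gene that fell was Rps6ka2, a ribosomal S6 kinase of the RSK family, with 6.39, 5.76 and 5.95 on the Hlirag arrays and 6.97, 8.09 and 6.38 on the diabetic arrays. The groups touched at 6.38 and 6.39, and the gene fell by 1.11 on the log2 scale (limma, adjusted p = 0.780). The call was lost by the methods' one-way ANOVA, with array weights (-0.89) and with values below background raised (-1.01). It was also lost without Hlirag replicate 2 (-0.98), Hlirag replicate 3 (-1.07), diabetic replicate 1 (-1.20), diabetic replicate 2 (-0.64), Hlirag replicate 3 and diabetic replicate 2 together (-0.60), or diabetic replicates 1 and 2 (-0.35). Mtor itself differed by -0.12 and Rps6kb1 by -0.36.

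The ribosomal proteins of mitochondria, which build a separate ribosome, had the other sign. Of 70 such genes, 52 were above 0, with a median of 0.11 and none at the criterion, and 8 had groups that did not overlap, close to the 11.1% of all genes. Their median was 0.35 after quantile normalization and 0.34 without Hlirag replicate 3. Mrpl2 and Mrpl28 had the lowest p. Mrpl2 had 6.68, 7.02 and 6.69 on the Hlirag arrays and 6.41, 6.23 and 6.31 on the diabetic arrays, a difference of 0.48 ± 0.22 (SE) that missed the criterion (limma, adjusted p = 0.780), and Mrpl28 differed by 0.48 ± 0.21 (SE). After quantile normalization both met the criterion, at 0.71 for Mrpl2 and 0.59 for Mrpl28. The mean of Mrpl28 was not above background, and with values below background raised it differed by 0.061. By array the 70 genes had median deviations of 0.21, 0.33 and -0.35 on the Hlirag arrays and 0.07, -0.04 and -0.25 on the diabetic arrays. Diabetic replicate 3 was thus low for the mitochondrial set and high for the cytosolic one, and this difference between the sets was not tested.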

How the data were processed

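RNA of 3 Hlirag and 3 diabetic samples was hybridised to Affymetrix Rat Gene 2.0 ST arrays. The authors made the deposited log2 values with Expression Console 1.4.1; summarisation, normalization and centring are not given in the sources used here, and their range (1.51 to 13.7) was taken to show a log2 scale. Of 36685 probe sets, 18511 named 1 symbol, 575 several and 17599 none in the array annotation. Each gene was read from its brightest single-symbol probe set. limma 3.58.1 in R 4.3.3 (lmFit, eBayes) compared the groups over all 18166 genes with Benjamini-Hochberg adjustment. The methods' one-way ANOVA, other scalings, filters, array weights, probe-set rules, a replicate block and left-out arrays were alternatives. The number of arrays limits precision. Members and lists were chosen with earlier results of these data known. Named genes were the 5 most positive and 5 most negative members, the 4 with the lowest p, the 3 with the smallest and 3 with the largest SD, any member without overlap, measured paralogs, and genes at the criterion or the 2 lowest p of each other list; members that illustrate a role group, Eef1a1, Mtor, Rps6kb1 and Rpl3 were added after their values were seen. On simulated data the fit called 77 of 100 genes changed by 1 and 98 of 100 changed by 2 on the log2 scale, and 791 of 17966 unchanged genes. Figures used numpy 2.4.6, pandas 2.3.3 and matplotlib 3.10.9.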

Additional observations from a re-analysis of the deposited data

How the results depend on the processing

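The 55 genes had 0 at the criterion under every alternative except 2, each with 1: Rpl30 lower without Hlirag replicate 1 and Rpl27a lower without diabetic replicates 1 and 2. Leaving out 1 array, or Hlirag replicate 3 with diabetic replicate 2, gave 0 to 1 of the 55 and 226 to 2018 of all genes. All genes numbered 389 with dim genes left out, 236 by the methods' one-way ANOVA, 150 with values below background raised to it and 286 without diabetic replicates 1 and 2. With the replicate number as a block they numbered 1117, and the 55 had 0. Same-numbered arrays correlated across genes with r of 0.316, 0.0396 and 0.151, and differently numbered arrays with r from -0.320 to 0.163. These values do not settle whether the numbers pair the arrays, and the main fit used no block.

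The median of the 55 ranged from -0.44 without Hlirag replicate 1 to 0.041 without Hlirag replicate 3, and was -0.098 after quantile normalization, -0.14 after median centring, -0.088 with array quality weights and -0.43 without diabetic replicates 1 and 2. The array weights counted diabetic replicate 1 at 9.20 and every other array at 0.27 to 0.93, so weighted diabetic means rest mostly on that 1 array. The signs of some single genes changed. With array weights Rpl26 had -0.088, Rpl37a 0.032 and Rps14 0.082. With median centring Rpl37a had 0.059, Rps14 0.0071 and Rps29 0.034. With quantile normalization Rpl22l1 had -0.23, Rpl26 -0.21, Rps14 0.13, Rps29 0.011, Rps3 0.076 and Rps4y2 -0.11. Without diabetic replicates 1 and 2 Fau had -0.25, Rpl10 0.078, Rpl3l 0.046, Rpl5 -0.56, Rpl7l1 0.021 and Rps24 -0.23.

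With arrays left out, the lowest and highest values were -0.093 and 0.40 for Fau, -0.58 and 0.095 for Rpl10, -0.64 and 0.021 for Rpl11, -0.076 and 0.14 for Rpl22l1, -0.048 and 0.12 for Rpl26, -0.051 and 0.068 for Rpl37a, -0.57 and 0.87 for Rpl5, -0.53 and 0.0089 for Rpl8, -0.33 and 0.034 for Rplp2, -0.30 and 0.24 for Rps14, -1.60 and 0.10 for Rps27, -0.10 and 0.085 for Rps29, -0.42 and 0.057 for Rps3, -0.061 and 0.20 for Rps4y2 and -0.59 and 0.041 for Rpsa. Rpl3l passed the criterion without diabetic replicate 3 (-3.29), with array weights (-2.32) and with the block. The weighted value rests mostly on diabetic replicate 1, where skeletal muscle markers were high. Calls were also gained by Nop58 (array weights, quantile normalization, the block, without Hlirag replicate 1), Nop56 (the block, without Hlirag replicate 1), Eef1b2 and Ubtf (without Hlirag replicate 1), Mrpl2 and Mrpl28 (quantile normalization) and Polr2e (quantile normalization, without Hlirag replicate 3). They were lost by Eef1a2 under 3 alternatives (the methods' one-way ANOVA, values below background raised, without diabetic replicates 1 and 2) and by Rps6ka2 under these and 6 more. The causes were not tested.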
